A study of Caenorhabditis elegans with 8 samples.

Results

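Untreated damt-1 worms were compared with untreated wild type worms, transcript by transcript, over the 12925 RefSeq transcripts that the deposited count tables of both genotypes list, out of 14396 in the series. The wild type table also lists 631 transcripts that the damt-1 table does not, and the damt-1 table lists 363 that the wild type table does not. RNA was taken from whole worms (Caenorhabditis elegans, Bristol background), raised at 22 °C and labelled L4, the last larval stage before the adult. Each of the 2 untreated groups has 2 replicate libraries, labelled wild type untreated and damt-1 untreated. The series also holds both genotypes treated with 1.92 µM antimycin A, an inhibitor of mitochondrial complex III, and labelled P0, F1 or F2, which gives 16 libraries in all. Here the treated worms serve only to show whether the genotype difference of the untreated worms was also present in other libraries. The labels name the genotype damt-1 without its allele. They do not say whether the replicates came from separate cultures, so a p-value here reflects the spread of these libraries alone, and that spread may be technical.

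The gene damt-1 encodes a protein of the methyltransferase-like family that has been linked to N6-adenine methylation of DNA in the worm, a mark that has been connected with the inheritance of stress responses across generations. The worm's hypodermis builds a new collagen cuticle before each moult, and sets of collagens, hedgehog-related proteins, cuticlins and proteases are transcribed in successive waves within each larval stage. L4 is also the stage in which the hermaphrodite germ line makes its sperm, begins to make oocytes, and the intestine starts to produce yolk proteins on the way to the adult.

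The untreated libraries held between 3694275 and 4145620 counts, and 12071 transcripts passed the filter on low counts and were tested. Levels are given as CPM (counts scaled to the effective library size) in replicate 1 and replicate 2, in that order. A log2 difference is damt-1 minus wild type, with the standard error (SE) of the edgeR fit, and a transcript is called higher or lower where its edgeR quasi-likelihood p, adjusted over all tested transcripts, is under 0.05. Counting intervals and floors given for transcripts with 0 to 3 counts cover counting error only. The 10 most counted transcripts held 1.63 to 1.88% of a library and no transcript exceeded 5.1 counts per nucleotide, so the most abundant transcripts were read within a narrow range of counts. In a principal component analysis of the 8 untreated and P0 libraries, the component with 53.9% of the variance placed the 4 wild type libraries between -41.1 and -31.4 and the damt-1 untreated libraries at 51.8 and 49.6. The damt-1 P0 libraries lay between them, at 21.7 and 23.4. Since whole worms were sampled, fewer cells of a type and less RNA per cell cannot be told apart in any of the values.

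The damt-1 transcript itself, listed under its clone name C18A3.1, did not separate the untreated genotypes. It stood at 20.1 and 19.7 CPM in wild type and 22.2 and 17.2 CPM in damt-1, and the groups overlapped (log2 difference -0.02 ± 0.19, adjusted p = 0.94). In treated worms it was lower in damt-1 in P0 (28.2 and 23.8 against 17.9 and 16.4 CPM, -0.59 ± 0.18, adjusted p = 0.014) and in F1 (-0.77, adjusted p = 0.0009), and F2 stood at -0.4 (adjusted p = 0.06). The interaction between genotype and P0 treatment was not called for it (adjusted p = 0.13). The RNA level in the untreated libraries therefore does not check their genotype label, and the labels do not describe the mutation. In what follows, damt-1 means the libraries labelled so.

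The untreated genotypes differed in many transcripts. Of the 12071 tested, 2278 were higher in damt-1 (18.9%) and 2505 were lower (20.8%), 4783 in all (39.6%). Many of these differences were small: 45.3% of the called transcripts differed by less than 1.5-fold, and the median log2 difference was 0.48 among those called higher and -0.81 among those called lower. At least a 2-fold difference was seen for 625 higher (5.18%) and 1012 lower transcripts (8.38%). The balance between higher and lower depended on the scaling. When the scaling rested on transcripts with less than 0.2 counts per nucleotide, 3075 were higher and 2135 lower, so that the higher share of the calls was 59.0% instead of 47.6%, and the median of all transcripts moved from 0.00 to 0.08. No transcript called in the main test was called in the opposite direction under any of the alternatives run.

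**Figure D1:**
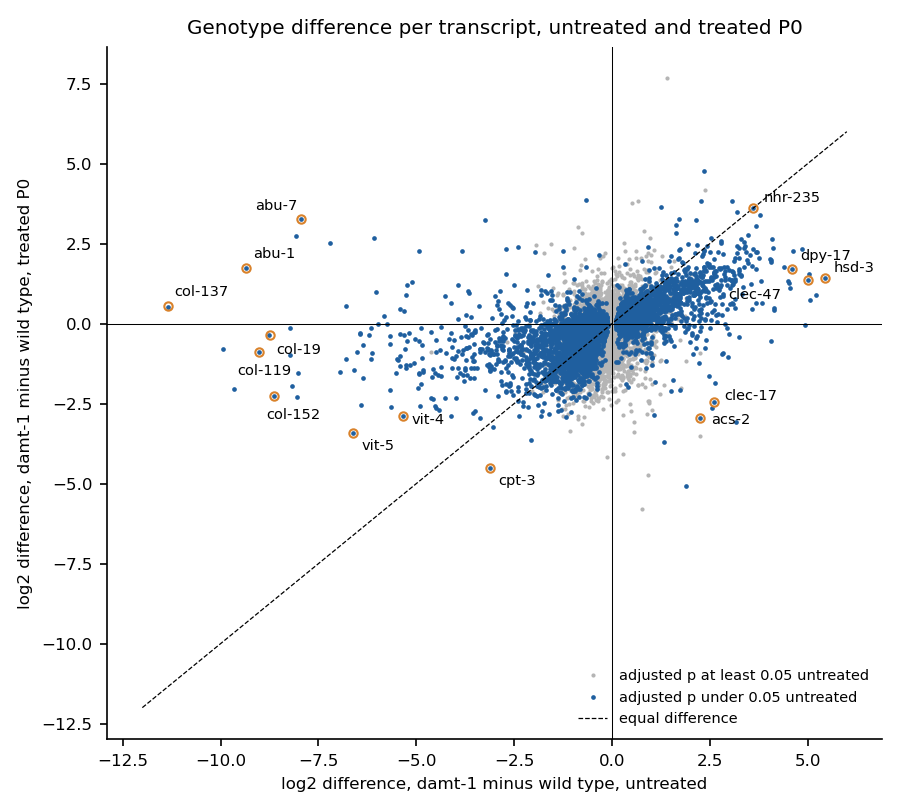
Genotype difference per tested transcript, damt-1 minus wild type on the log2 scale, in untreated worms (horizontal) and in treated P0 worms (vertical); blue points were called in the untreated worms, grey points were not, circled points are named, and the dashed line marks equal differences. The arm on the left holds transcripts such as col-137, abu-1 and col-19, far lower in untreated damt-1 than in wild type and close to or above wild type in P0; for transcripts with 0 counts in a group the fitted value depends on the prior count.

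Of the 12 largest falls, 4 were in cuticle collagens and 2 in abu or pqn proteins. The adult cuticle collagen col-19, a common marker of the passage from larva to adult, stood at 249 and 236 CPM in wild type and 0.548 and 0.513 CPM in damt-1 (log2 difference -8.75 ± 0.16, adjusted p = 3.5e-21). The collagen col-137 stood at 79.7 and 86.8 CPM in wild type and had no count in either damt-1 library, which makes it at least 210.0-fold lower against a floor of 3 counts over both libraries (adjusted p = 4.9e-16). For col-119 the wild type libraries held 684 counts and the damt-1 libraries 1, a ratio of 647 with a 95% counting interval from 116 to 25600.0. Groups without overlap between the genotypes were a condition for the choice of the 12 largest falls, so non-overlap is no result for them. The collagen col-152 stood at 62.7 and 66.8 CPM in wild type and 0 and 0.256 CPM in damt-1. The other large falls were in the pqn family gene pqn-29 (17.2 and 19 against 0 and 0.256 CPM), the yolk protein gene vit-5, and clone-named genes: F41E6.11 (current name idpc-2), F54F7.3, C27D9.2, T06E4.14 (current name idpc-4) and C35B1.4. Of these, F41E6.11 went from 31 and 31.6 CPM and F54F7.3 from 24.9 and 26.4 CPM to no count at all, while C27D9.2 kept 2 counts of 292, T06E4.14 2 of 265 and C35B1.4 1 of 127.

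In all, 13 tested transcripts had no count in the damt-1 untreated libraries and at least 20 counts over the wild type untreated libraries, and 0 tested transcripts showed the reverse. Only transcripts that both tables list could be tested, and those listed for 1 genotype are given at the end. Beside col-137, F41E6.11 and F54F7.3, they were the secreted abu proteins abu-1, abu-7 and abu-15, the collagen col-62, the cuticlin-like gene cutl-12, scvp-1, and the clone-named M02G9.3 (current name idpp-8), M02G9.1 (current name appg-1), M01B2.8 and W03G11.2. In wild type, abu-1 stood at 21.4 and 20 CPM and was at least 52-fold lower in damt-1. The bound was at least 21.8-fold for abu-15, 19.6-fold for abu-7 and 11.7-fold for col-62. These 4 genes were not absent from the genotype: in treated P0 worms damt-1 was higher than wild type for abu-1 (log2 difference 1.73 ± 0.2), abu-7 (3.28 ± 0.31), abu-15 (2.72 ± 0.29) and col-62 (2.52 ± 0.28).

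Among the col family of cuticle collagens, the main structural proteins of the cuticle, 74 of 108 tested members were lower and 15 higher in untreated damt-1, against 20.8% lower and 18.9% higher over all transcripts. Their median log2 difference was -0.86, beside 0.00 over all transcripts, and 50 of the 74 differed by at least 2-fold. The summed level of the family was 22811 and 21274 CPM in wild type and 14398 and 13942 CPM in damt-1. The most significant members were lower by similar steps. Among them, col-81 went from 293 and 277 to 4.38 and 4.62 CPM (-5.97 ± 0.11), col-139 from 332 and 314 to 5.75 and 3.33 CPM (-6.15 ± 0.11), col-88 from 380.4 and 357 to 3.01 and 5.38 CPM (-6.43 ± 0.12) and col-140 from 300.0 and 277 to 1.92 and 4.62 CPM (-6.43 ± 0.13). A smaller set was higher in damt-1. Among these were col-149, from 112 and 106 to 389.5 and 369.8 CPM (1.8 ± 0.05), col-128, from 5.82 and 6.18 to 101 and 102 CPM (4.07 ± 0.17), and col-46, from 13.5 and 20 to 100.2 and 104 CPM (2.6 ± 0.13). The collagens col-176 (51.6 and 46.6 against 204 and 188 CPM) and col-142 (21.2 and 23.8 against 101 and 90.8 CPM) were higher as well.

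Collagens with known places in the cuticle moved in different directions. All 6 furrow collagens, which form the circumferential furrows and are needed for a normal body shape, were higher in damt-1, with a median log2 difference of 2.19. Of these, dpy-7 stood at 78.6 and 80.9 CPM in wild type and 371 and 352 CPM in damt-1 (2.18 ± 0.06, adjusted p = 2.3e-18). The values were 83.4 and 91.6 and then 422 and 401 CPM for dpy-2 (2.23 ± 0.06), and 111 and 117 and then 501 and 489.5 CPM for dpy-8 (2.12 ± 0.05). The other members were dpy-3 (2.14 ± 0.07), dpy-9 (2.2 ± 0.14) and the lowly counted dpy-10 (2.89 ± 0.38), and in none of the 6 did the groups overlap. With 2 libraries per group this was common: of 12071 tested transcripts, 4114 had groups without overlap and damt-1 higher, and 4103 had them with damt-1 lower. Another body shape collagen, dpy-17, was among the largest rises, from 0.265 and 2.38 to 28.8 and 38.7 CPM (4.59 ± 0.38). Of the 12 other body shape collagens and their modifying enzymes 2 were higher and 2 lower (33.3% called, beside 39.6% of all transcripts). Apart from dpy-17 the differences were small: lon-3 0.27 ± 0.05, rol-1 -0.27 ± 0.05 and the prolyl hydroxylase dpy-18 -0.15 ± 0.04. Among 6 collagens tied to the adult cuticle, col-19, col-62 and col-7 were lower. The collagens bli-1 and bli-2, which build the struts of the adult cuticle, were higher, at 706 and 664 against 1226 and 1196 CPM (0.82 ± 0.04) and 363 and 339 against 419 and 396 CPM (0.22 ± 0.05). The sixth, rol-6, differed by 0.07 ± 0.05 (adjusted p = 0.24). For col-7, 20 counts in wild type stood against 1 in damt-1, a ratio of 18.9 (95% counting interval 3.03 to 784). The call of col-7 was lost without damt-1 replicate 1 or wild type replicate 2 (adjusted p up to 0.3). The call of dpy-18 was lost without damt-1 replicate 2 or wild type replicate 1 (adjusted p up to 0.073).

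**Figure D2:**
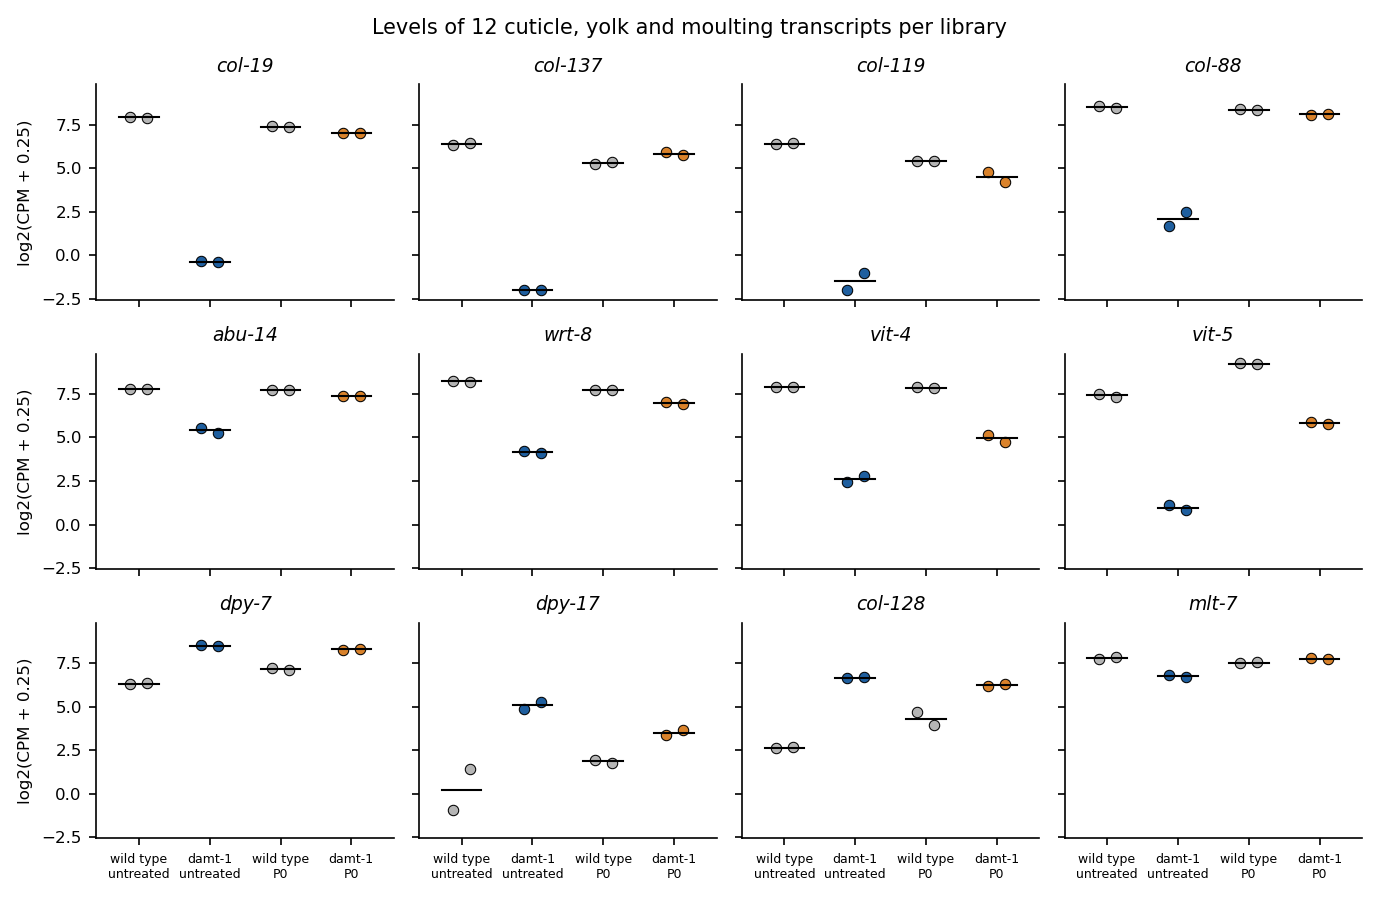
Levels of 12 transcripts as log2(CPM + 0.25) in the 2 libraries of each of 4 groups (points) with their mean (bar): untreated and P0 worms of wild type (grey) and of damt-1 (blue untreated, orange P0). The cuticle genes col-19, col-137, col-119, col-88, abu-14 and wrt-8 are low in the damt-1 untreated libraries alone, vit-4 and vit-5 are lower in damt-1 in both conditions, and dpy-7, dpy-17 and col-128 are higher in damt-1 in both.

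The abu and pqn families, secreted proteins rich in glutamine and asparagine that are found in the lining of the pharynx and in stress responses, had 23 lower and 6 higher members of 41 tested (70.7% called, beside 39.6% of all transcripts). Their median was -0.23, and it was -0.55 without damt-1 replicate 1 and -0.41 without wild type replicate 2. The best measured was abu-14, at 224 and 216 CPM in wild type and 46.8 and 38.7 CPM in damt-1 (-2.37 ± 0.07). Closer to absence in damt-1 were pqn-63 (43.7 and 43.3 against 1.1 and 1.03 CPM, -5.32 ± 0.28) and abu-11 (33.6 and 29 against 0 and 1.54 CPM, -5.24 ± 0.37). For pqn-37 the difference was -2.13 ± 0.12. Without damt-1 replicate 1 the list had 3 higher and 21 lower members.

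Hedgehog-related and patched-related genes, which in worms act in cuticle formation, growth and moulting, split into 27 lower and 18 higher of 55 tested. Of these 55, 81.8% were called, beside 39.6% of all transcripts. The warthog gene wrt-8 fell from 304 and 295 to 18.4 and 16.7 CPM (-4.1 ± 0.08, adjusted p = 6e-21), and the groundhog-related gene grd-6 from 288 and 294 to 23.8 and 24.1 CPM (-3.6 ± 0.08). A patched-related receptor, ptr-23, was lower too (477 and 468 against 139 and 129 CPM). In the other direction, wrt-2 stood at 108 and 107 CPM in wild type and 474 and 448 CPM in damt-1 (2.1 ± 0.05). The cuticlins and other zona pellucida proteins, which make cuticle ridges and the transient coats under a new cuticle, had 13 higher and 12 lower of 28 (89.3% called). Among them noah-2, a component of the precuticle, was higher (319 and 291 against 949.9 and 900.0 CPM, 1.6 ± 0.05), as was cutl-28 (2.45 ± 0.08). The cuticlin cut-4 was lower (283 and 274 against 52.9 and 45.4 CPM, -2.5 ± 0.07), as was cutl-15 (-2.02 ± 0.07).

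Regulators and enzymes of moulting changed in both directions, with 8 higher and 5 lower of 15 (86.7% called, beside 39.6% of all transcripts). The transcription factor gene myrf-1 stood at 352 and 358 CPM in wild type and 638 and 631 CPM in damt-1 (0.84 ± 0.04), and the hedgehog-related qua-1 at 617 and 614 and 1207 and 1195 CPM (0.96 ± 0.04). The astacin protease gene nas-37, needed to shed the old cuticle, was higher as well (3.18 and 3.33 against 17.8 and 18.5 CPM, 2.47 ± 0.29), and so was mlt-4 (1.25 ± 0.09). Its relative nas-36 was lower (157 and 145 against 53.7 and 55.6 CPM, -1.46 ± 0.09). So was mlt-7, a peroxidase that cross-links cuticle collagens (215 and 229 against 113 and 105 CPM, -1.03 ± 0.06). Among 6 heterochronic transcripts, which time the larval stages, lin-42, the worm period homologue whose level follows the moulting cycle, was higher (3.18 and 2.38 against 9.59 and 11.3 CPM, 1.91 ± 0.37, adjusted p = 0.00025). The other 5 were not called, though 1 was called lower without wild type replicate 1: -0.72 and 0.2 for the lin-14 transcripts, -0.63 for lin-46, -0.34 for alg-1 and 0.15 for daf-12. Both genotypes carry the label L4, and no label gives the hour of collection within the stage. Whether position within L4 differed between the untreated groups was not tested.

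**Figure D3:**
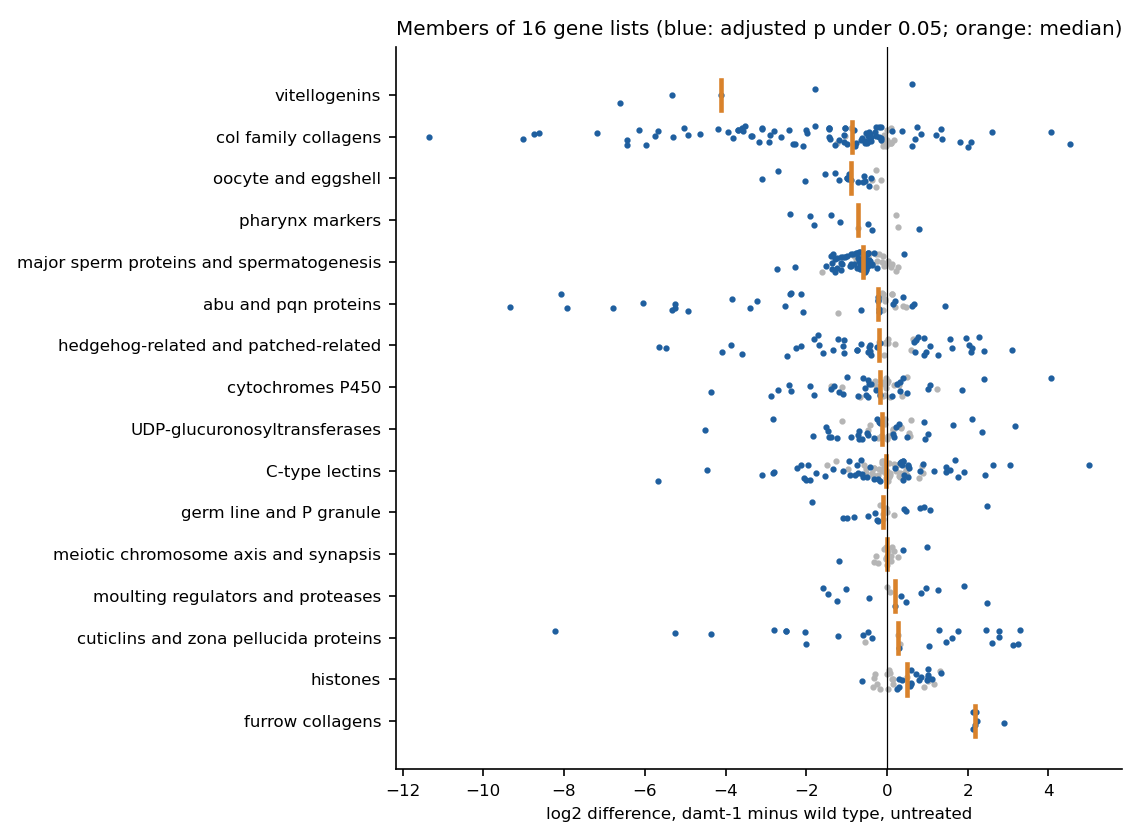
Log2 difference between untreated damt-1 and wild type worms for every tested member of 16 gene lists, 1 point per transcript, blue where called and grey where not, with the median of each list as an orange bar. The furrow collagens lie together near 2.19, while the col family, the abu and pqn proteins and the vitellogenins reach far to the left and the sperm and oocyte lists are shifted to the left as a whole.

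Most yolk, oocyte and sperm genes were lower in damt-1. Of the 5 vitellogenins tested (vit-1 to vit-5), yolk proteins that the intestine secretes, 4 were lower and 1 higher, with a median of -4.11. They were vit-5, at 182 and 161 CPM in wild type and 1.92 and 1.54 CPM in damt-1 (-6.61 ± 0.16, adjusted p = 3.7e-19), vit-4, at 239.6 and 242 and 5.2 and 6.67 CPM (-5.33 ± 0.12), vit-3, at 602 and 558 and 31 and 36.2 CPM (-4.11 ± 0.07), and the lowly counted vit-2 (-1.78 ± 0.53). The exception was vit-1, at 363 and 357 CPM in wild type and 538 and 567 CPM in damt-1 (0.62 ± 0.04). Vitellogenin genes are near-identical to each other in part, so how reads were shared among them is uncertain, and the call of vit-2 was lost without damt-1 replicate 2. The summed level of these 5 vitellogenins was 1391 and 1322 CPM in wild type and 577 and 613 CPM in damt-1.

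Of 21 oocyte and eggshell genes 17 were lower and 0 higher (81.0% called, beside 39.6% of all transcripts). Their median was -0.89, and the log2 differences of all 21 lay between -3.09 and -0.15. The eggshell permeability genes perm-4 (72.8 and 85.2 against 8.49 and 10 CPM, -3.09 ± 0.15) and perm-2 (64.6 and 65.4 against 9.59 and 10.3 CPM, -2.71 ± 0.14) differed most. The chondroitin proteoglycan genes cpg-1 (-2.02 ± 0.21) and cpg-2 (-0.96 ± 0.09), the eggshell chitin-binding gene cbd-1 (-1.2 ± 0.09) and the oocyte RNA-binding gene puf-5 (-1.53 ± 0.21) were lower too. Major sperm protein and spermatogenesis genes had 56 lower and 1 higher of 79 (72.2% called), with a median of -0.59. The sperm genes ssq-2 (133 and 128 against 54.5 and 47.7 CPM, -1.35 ± 0.08), ssq-1 (-1.14 ± 0.08), ssq-4 (-1.13 ± 0.08) and F32A11.3, now named spe-18 (-0.92 ± 0.08), were the most significant. Major sperm protein genes are near-identical copies, and their separate counts are uncertain. In DESeq2 the counts of lower members were 40 for the sperm list and 12 for the oocyte list, with 1 and 0 higher.

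The wider germ line lists had medians near 0 in untreated worms. Of 20 germ line and P granule transcripts 6 were higher, 8 lower and 6 not called, and the median was -0.10. The called share of this list was above the 39.6% of all transcripts, with members in both directions. The translational repressor gld-1 was lower (169 and 166 against 101 and 90.3 CPM, -0.82 ± 0.07), as were 3 transcripts of gld-2, a cytoplasmic poly(A) polymerase, by -1.85 ± 0.18, -0.99 ± 0.34 and -0.46 ± 0.13. The Vasa-like helicase glh-1 (-0.22 ± 0.04) and daz-1 (-0.25 ± 0.07) were slightly lower. In contrast the Notch receptor glp-1, which keeps germ line stem cells dividing, was higher (87.1 and 86.6 against 118 and 123 CPM, 0.47 ± 0.07). Also higher were the chromatin regulators mes-4 (63.8 and 59.9 against 103 and 115 CPM, 0.83 ± 0.08) and mes-6 (53.2 and 52.8 against 111 and 111 CPM, 1.06 ± 0.08). Meiotic chromosome axis and synapsis genes had 2 higher (rad-54, 0.41 ± 0.12, and him-5, 1.0 ± 0.36) and 1 lower member (lab-1, -1.2 ± 0.31) of 19 (15.8% called), with a median of -0.01. Argonautes and small RNA inheritance factors had 3 higher and 4 lower of 26 (26.9% called, below the 39.6% of all transcripts), with 1 higher without wild type replicate 1 or damt-1 replicate 2. Among these wago-4 (102 and 96.8 against 42.5 and 58 CPM, -0.97 ± 0.1) and wago-10 (-0.74 ± 0.1) were lower and nrde-3 was higher (0.37 ± 0.08). Of 35 histone genes (51.4% called) 17 were higher, 1 was lower (0 without wild type replicate 1 or damt-1 replicate 2) and 17 were not called, with a median of 0.49. Examples of the higher ones were his-3 (0.71 ± 0.11), his-59 (0.8 ± 0.13), his-62 (1.34 ± 0.24) and his-6 (1.0 ± 0.19). Replication-dependent histone copies are near-identical too. The calls of the gld-2 transcript at -0.99 and rad-54 were lost without damt-1 replicate 1 or wild type replicate 2 (adjusted p up to 0.56 and 0.12). The call of the gld-2 transcript at -0.46 was lost without damt-1 replicate 2 (adjusted p up to 0.072). The call of daz-1 was lost without damt-1 replicate 1 or wild type replicate 1 (adjusted p up to 0.13). The call of him-5 was lost without damt-1 replicate 1, damt-1 replicate 2 or wild type replicate 1 (adjusted p up to 0.23).

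Every tested marker of the 8 tissues examined had counts in each untreated library. The called share was 72.7% for the pharynx markers, beside 39.6% of all transcripts. For each of the other marker lists it was at most 44.4%, near or below the share of all transcripts. The number of calls alone therefore does not set those lists apart. Of 11 pharynx markers 7 were lower and 1 was higher, and the summed level of the list was 580 and 617 CPM in wild type and 387 and 394 CPM in damt-1. The pharyngeal myosins myo-2 (124 and 158 against 57.5 and 50.3 CPM, -1.4 ± 0.11), myo-5 (-1.82 ± 0.2) and myo-1 (-0.37 ± 0.09) and the gland cell genes phat-1 (-1.91 ± 0.19), phat-2 (-1.17 ± 0.14) and phat-4 (-0.48 ± 0.08) were lower, together with pqn-8 (-2.4 ± 0.51). The higher one was phat-3 (0.8 ± 0.25). Body wall muscle markers had 2 higher of 8 (myo-3 0.27 ± 0.03 and mup-2 0.12 ± 0.05), at a summed 5362 and 5012 CPM in wild type and 5829 and 5632 CPM in damt-1. Without wild type replicate 1 the muscle list had 5 higher members, and 1 without wild type replicate 2 or damt-1 replicate 1. Intestine markers had 3 higher and 2 lower of 13, with cpr-1 at 0.64 ± 0.05 and the gut transcription factor elt-7 at -1.25 ± 0.26, and summed to 3849 and 3635 CPM in wild type and 4157 and 4022 CPM in damt-1, so that this sum was higher in damt-1 while the vitellogenins, which the intestine makes, were mostly lower. Without wild type replicate 1 the intestine list had 6 higher members, and without damt-1 replicate 1 it had 1 lower member. Hypodermis markers had 3 higher and 1 lower of 9, and the higher ones were bus-8 (0.31 ± 0.05) and, already described in their own lists, wrt-2 and dpy-7. The lower one was nhr-25, a nuclear receptor of the moulting cycle (-1.58 ± 0.4). Of 10 neuron markers 3 were lower (1 without wild type replicate 2), with ida-1 at -0.24 ± 0.04. Of 7 markers of the gonad sheath and spermatheca 3 were lower (sth-1 -1.21 ± 0.19, inx-8 -0.6 ± 0.13 and inx-9 -0.39 ± 0.15), at a summed 159 and 166 CPM in wild type and 110 and 121 CPM in damt-1. Of 8 vulva and uterus markers 3 were higher, lin-12 (1.97 ± 0.13), egl-17 (1.39 ± 0.51) and the moulting protease nas-37, at a summed 72.0 and 79.4 CPM in wild type and 147 and 168 CPM in damt-1. Of 4 coelomocyte markers unc-122 was higher (0.93 ± 0.28). The call of mup-2 was lost without damt-1 replicate 1 or wild type replicate 2 (adjusted p up to 0.41). The calls of phat-3 and egl-17 were lost without damt-1 replicate 1, wild type replicate 1 or wild type replicate 2 (adjusted p up to 0.084 and 0.27). The call of inx-9 was lost without any 1 of the 4 libraries (adjusted p up to 0.2). The call of unc-122 was lost without damt-1 replicate 1 or wild type replicate 1 (adjusted p up to 0.18). The part of tissue proportions in the cuticle, yolk and germ line results was not tested.

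Of 13 genes of adenine and H3K4 methylation, the marks that damt-1 has been studied with, 1 was called (7.69%, beside 39.6% of all transcripts). It was hcf-1, a chromatin cofactor, at 199 and 194 CPM in wild type and 230.4 and 236 CPM in damt-1 (0.25 ± 0.05, adjusted p = 0.00026). The 6mA demethylase candidate nmad-1, listed as F09F7.7, differed by 0.22 ± 0.22 (adjusted p = 0.46), and the H3K4 demethylase spr-5 by -0.1 ± 0.06 (adjusted p = 0.2). Subunits of the H3K4 methyltransferase complex were at 0.08 ± 0.06 for wdr-5.1, -0.29 ± 0.23 for ash-2, 0.02 ± 0.09 for rbbp-5 and 0.1 ± 0.06 for dpy-30, and none passed the threshold. The demethylase homologue lsd-1 missed it at 0.48 ± 0.19 (adjusted p = 0.053).

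S-adenosylmethionine is the methyl donor of these enzymes. Of 18 genes of S-adenosylmethionine and one-carbon metabolism 9 were higher and 2 lower (61.1% called, beside 39.6% of all transcripts). Their median was 0.20. Methionine synthase metr-1 led the list, at 460.4 and 458 CPM in wild type and 1028 and 1031 CPM in damt-1 (1.17 ± 0.04, adjusted p = 3.1e-17). The vitamin B12 handling gene mmaa-1 (14.8 and 12.1 against 27.9 and 34.4 CPM, 1.22 ± 0.18) and 1 transcript of the folate reductase gene mthf-1 (1.3 ± 0.38) were higher. Smaller rises were seen in the S-adenosylmethionine synthetase sams-1 (461 and 444 against 578 and 552 CPM, 0.32 ± 0.04), in hphd-1 of the propionate shunt (0.42 ± 0.04), in the phosphoethanolamine methyltransferase pmt-2 (0.22 ± 0.04) and in ahcy-1, which clears the product of methyl transfer (0.19 ± 0.05). The cystathionine synthase genes cbs-2 (-0.7 ± 0.16) and cbs-1 (-0.18 ± 0.06) were lower. The call of ahcy-1 was lost without damt-1 replicate 1 or wild type replicate 2 (adjusted p up to 0.071). The call of cbs-1 was lost without damt-1 replicate 2, wild type replicate 1 or wild type replicate 2 (adjusted p up to 0.3). The call of the mthf-1 transcript at 1.3 was lost without wild type replicate 1 (adjusted p up to 0.059).

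**Figure D4:**
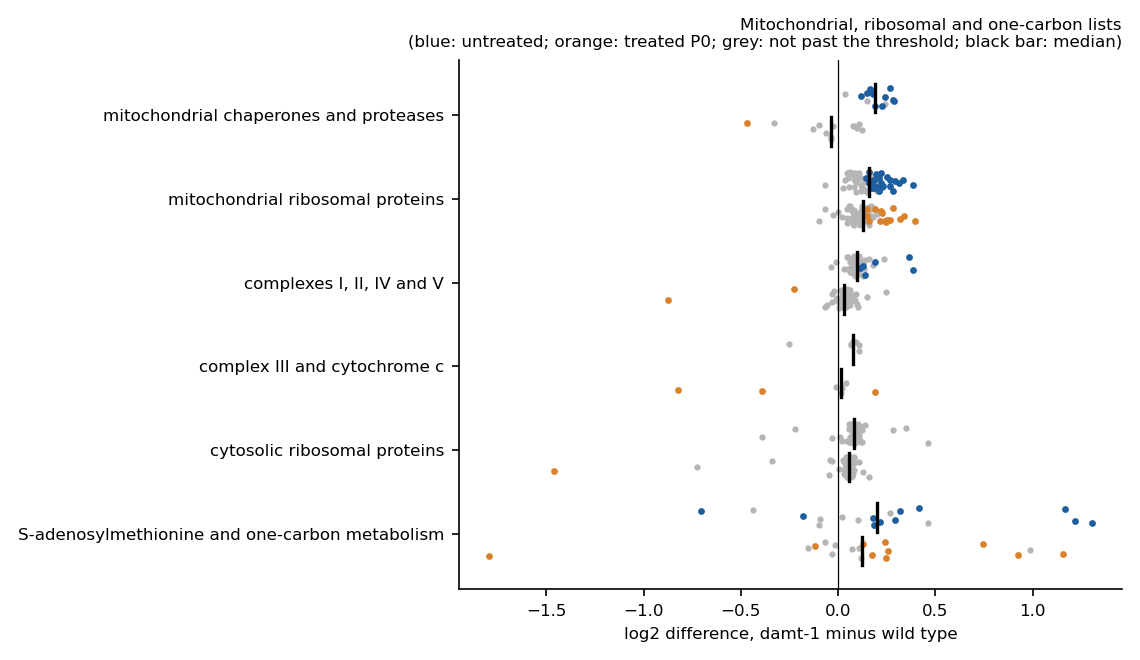
Log2 difference between damt-1 and wild type for every tested member of 6 lists, in untreated worms (upper row of each list, blue where called) and in treated P0 worms (lower row, orange where called), with grey points where not called and the median as a black bar. The untreated medians of the mitochondrial chaperones and of the mitochondrial ribosomal proteins lie at 0.19 and 0.16, and in P0 at -0.04 and 0.13.

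Mitochondrial chaperones and ribosomal proteins held small rises in untreated damt-1. Of 13 chaperones, import factors, proteases and regulators of mitochondrial protein folding 10 were higher and 0 lower (76.9% called), with a median of 0.19. They were the protease spg-7 (374 and 372 against 434 and 448 CPM, 0.24 ± 0.04), the proteases lonp-1 (0.15 ± 0.04) and ymel-1 (0.18 ± 0.05), the chaperones hsp-60 (0.28 ± 0.07) and hsp-6 (0.12 ± 0.04), and the import proteins timm-23 (0.23 ± 0.06), timm-17B.1 (0.26 ± 0.06), tomm-20 (0.19 ± 0.05) and tomm-22 (0.29 ± 0.11). The tenth, met-2, is a histone H3K9 methyltransferase (0.16 ± 0.06). Mitochondrial ribosomal proteins had 29 higher and 0 lower of 67 (43.3% called, beside 39.6% of all transcripts in either direction and 18.9% higher). Their median was 0.16, and they were led by mrps-31 (111 and 112 against 147 and 145 CPM, 0.39 ± 0.06), mrps-22 (0.33 ± 0.05), mrpl-37 (0.29 ± 0.05) and mrpl-22 (0.31 ± 0.06). Of 57 nuclear genes of complexes I, II, IV and V 6 were higher (10.5%, below the 18.9% of all transcripts), and the assembly factors cox-15 (0.36 ± 0.05) and cox-10 (0.39 ± 0.07) led them ahead of sdhd-1 (0.19 ± 0.06) and gas-1 (0.11 ± 0.04). None of 7 genes of complex III and cytochrome c was called (1 higher without wild type replicate 1), and none of 76 cytosolic ribosomal proteins, whose median was 0.08. These counts moved with the method and the libraries. DESeq2 called 2 of the chaperone list and 6 of the mitochondrial ribosomal list, with 0 lower in each. Under the scaling from low-density transcripts 13 cytosolic ribosomal proteins and 28 genes of complexes I, II, IV and V were called higher. Without wild type replicate 1, wild type replicate 2, damt-1 replicate 1 and damt-1 replicate 2 in turn, the mitochondrial ribosomal list had 17, 13, 11 and 16 higher members, the chaperone list 8, 4, 7 and 6, complexes I, II, IV and V 11, 2, 2 and 7, and the cytosolic ribosomal list 11, 0, 0 and 0, with 0 lower in each. The calls of hsp-6, tomm-20 and sdhd-1 were lost without damt-1 replicate 1 or wild type replicate 2 (adjusted p up to 0.28, 0.11 and 0.11). The call of lonp-1 was lost without damt-1 replicate 2 or wild type replicate 2 (adjusted p up to 0.096). The call of ymel-1 was lost without damt-1 replicate 2 (adjusted p up to 0.19). The call of met-2 was lost without damt-1 replicate 2, wild type replicate 1 or wild type replicate 2 (adjusted p up to 0.24). The call of tomm-22 was lost without any 1 of the 4 libraries (adjusted p up to 0.16). The call of timm-17B.1 was lost without wild type replicate 2 (adjusted p up to 0.05). The call of gas-1 was lost without damt-1 replicate 1, wild type replicate 1 or wild type replicate 2 (adjusted p up to 0.19).

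Other stress genes were mixed. Of 20 chaperones of the endoplasmic reticulum and of heat shock, 30% of which were called, 5 were higher, among them hsp-16.41 (27.5 and 28.1 against 49 and 48 CPM, 0.8 ± 0.13), hsp-12.3 (0.86 ± 0.26) and the disulfide isomerase pdi-1 (0.14 ± 0.04), and 1 was lower, the BiP homologue hsp-4 (-0.17 ± 0.05). The higher count of this list was 8 without wild type replicate 1 and 2 without wild type replicate 2 or damt-1 replicate 1, and its lower count was 0 without damt-1 replicate 2. Of 18 antioxidant transcripts 4 were higher and 5 lower (2 and 4 without damt-1 replicate 1), a called share of 50% beside 39.6% of all transcripts. The methionine sulfoxide reductase msra-1 (127 and 125 against 254 and 241 CPM, 0.97 ± 0.05) and the mitochondrial superoxide dismutase sod-3 (8.47 and 6.9 against 18.6 and 12.1 CPM, 0.99 ± 0.26) were higher, as were prdx-3 (0.14 ± 0.05) and gpx-3, with 39 counts in damt-1 against 1 in wild type. The intestinal thioredoxin trx-3 (141 and 129 against 38.3 and 39 CPM, -1.8 ± 0.08), 2 transcripts of the oxidative stress regulator skn-1 (-2.1 ± 0.25 and -0.36 ± 0.14), gpx-5 (-0.45 ± 0.08) and gpx-1 (-0.28 ± 0.07) were lower. The superoxide dismutase sod-2 (0.13 ± 0.05, adjusted p = 0.058) and the catalase ctl-2 (0.00 ± 0.04, adjusted p = 0.99) were not called. Of 10 genes of the hypoxia and hydrogen sulfide response 4 were higher (40.0% called), with the HIF-1 target nhr-57 at 0.68 ± 0.12, the cysteine synthase homologues cysl-3 (0.5 ± 0.05) and cysl-2 (0.4 ± 0.05), and phy-2 (0.12 ± 0.04). The call of hsp-12.3 was lost without damt-1 replicate 1 or wild type replicate 1 (adjusted p up to 0.2). The call of hsp-4 was lost without damt-1 replicate 2 (adjusted p up to 0.052). The calls of pdi-1, prdx-3 and phy-2 were lost without damt-1 replicate 1 or wild type replicate 2 (adjusted p up to 0.16, 0.4 and 0.15). The call of sod-3 was lost without damt-1 replicate 1 (adjusted p up to 0.12). The call of the skn-1 transcript at -0.36 was lost without damt-1 replicate 1, damt-1 replicate 2 or wild type replicate 2 (adjusted p up to 0.34).

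Lipid genes differed in both directions. Of 53 genes of fatty acid activation and oxidation 16 were higher and 22 lower (71.7% called, beside 39.6% of all transcripts). The acyl-CoA synthetase acs-2, which feeds fatty acids into mitochondrial oxidation, stood at 12.4 and 14.5 CPM in wild type and 63.3 and 66.4 CPM in damt-1 (2.26 ± 0.12), and acs-3 at 25.7 and 24 and 147 and 157 CPM (2.62 ± 0.09). Also higher was hacd-1, a hydroxyacyl-CoA dehydrogenase (65.4 and 73.5 against 195 and 198 CPM, 1.5 ± 0.06). The acyl-CoA dehydrogenase acdh-6 (249.7 and 254 against 69.8 and 60.5 CPM, -1.95 ± 0.06) and the carnitine palmitoyltransferases cpt-4 (-1.39 ± 0.05) and cpt-3 (-3.11 ± 0.44) were lower. Of 39 genes of fatty acid synthesis, lipases and lipid binding 15 were higher and 14 lower (74.4% called). Fatty acid synthase fasn-1 was at 892 and 864 CPM in wild type and 1686 and 1693 CPM in damt-1 (0.94 ± 0.03). The lipid-binding protein lbp-8 was among the largest rises, from 1.06 and 0.476 to 21.4 and 23.6 CPM (4.84 ± 0.37), and the lysosomal lipase gene lipl-6 was higher (2.04 ± 0.09). The lipase genes lips-3 (266 and 263 against 46.3 and 39 CPM, -2.64 ± 0.07) and lips-6 (59.8 and 55.4 against 1.92 and 1.79 CPM, -4.93 ± 0.24) were lower. Glycolysis and citric acid cycle genes had 9 higher and 2 lower of 32 (34.4% called, and 1 lower without damt-1 replicate 1 or damt-1 replicate 2), with aconitase aco-1 at 0.28 ± 0.04, the pyruvate dehydrogenase subunit pdhb-1 at 0.3 ± 0.05, and the glyceraldehyde-3-phosphate dehydrogenase gpd-1 lower at -0.81 ± 0.11. Of 16 genes of insulin signalling and DAF-16 targets 2 were higher and 5 lower (43.8% called), with 0 and 6 without damt-1 replicate 1. The transhydrogenase nnt-1 fell most clearly (205 and 225 against 43 and 47.2 CPM, -2.25 ± 0.07).

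Detoxification families also moved both ways. Cytochromes P450, which oxidise foreign and endogenous compounds, had 22 lower and 11 higher of 54 (61.1% called, beside 39.6% of all transcripts). The largest fall was in cyp-37B1, from 86.3 and 89.7 to 3.56 and 4.87 CPM (-4.37 ± 0.17), and cyp-35B1 was lower by -2.39 ± 0.11. In the other direction cyp-23A1 (1.85 ± 0.16) and cyp-13A2 (1.01 ± 0.08) were higher. UDP-glucuronosyltransferases, which conjugate sugars to such compounds, had 19 lower and 12 higher of 49 (63.3% called). They were led by ugt-47 (432 and 418 against 256 and 265 CPM, -0.71 ± 0.04), ugt-51 (-1.39 ± 0.09), ugt-6 (-0.7 ± 0.05) and ugt-25 (-1.84 ± 0.13), all lower. Of 39 glutathione S-transferases 7 were higher and 8 lower, beside 18.9% and 20.8% of all transcripts, with gst-35 at -1.47 ± 0.14 and gst-12 at 1.43 ± 0.22. Without wild type replicate 1 there were 5 and 5 of them, and without damt-1 replicate 2 there were 6 and 5. ABC transporters had 16 higher and 15 lower of 46 (67.4% called). Here mrp-4 was at 94.8 and 106 CPM in wild type and 426 and 459 CPM in damt-1 (2.14 ± 0.06), pgp-10 was higher (2.23 ± 0.14) and pgp-3 lower (-0.94 ± 0.06). Of 22 metal, iron and heme genes 5 were higher and 6 lower (50% called, beside 39.6% of all transcripts), including the heme transporter hrg-1 (73.1 and 80.2 against 24.9 and 24.4 CPM, -1.64 ± 0.12).

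Among defence genes, C-type lectins, secreted or membrane proteins with a carbohydrate-binding fold, had 26 higher and 28 lower of 96. Of these 96, 56.25% were called, beside 39.6% of all transcripts. The rise of clec-47, from 4.77 and 3.81 to 144 and 132 CPM (5.0 ± 0.14, adjusted p = 5.4e-18), was the most significant of the list. The related clec-229 went the other way (49 and 49 against 0.822 and 1.03 CPM, -5.68 ± 0.27), as did clec-230 (-2.79 ± 0.12) and clec-258 (-2.0 ± 0.07). Lysozymes, saposin-like proteins and defence peptides had 19 higher and 9 lower of 51 (54.9% called). The lysozyme genes lys-5 (1.06 and 0.238 against 9.59 and 13.1 CPM, 4.11 ± 0.55) and lys-4 (0.72 ± 0.05), the peptide gene cnc-3 (0.9 ± 0.09) and F23F1.7, now named spp-24 (2.88 ± 0.32), were higher, and nlp-34 was lower (-1.96 ± 0.2). The pals and chitinase-like chil families had 3 higher and 5 lower of 20 (40.0% called), with pals-24 at -1.43 ± 0.12 and chil-22 at 1.87 ± 0.22. F-box proteins had 17 higher and 17 lower of 108 (31.5% called), and math and bath proteins 4 higher and 5 lower of 48 (18.8%). Without wild type replicate 1 the F-box counts were 10 and 15, without wild type replicate 2 they were 15 and 11, and without damt-1 replicate 1 they were 15 and 10. The math and bath counts were 4 and 3 without wild type replicate 2, 2 and 6 without damt-1 replicate 1, and 2 and 5 without damt-1 replicate 2.

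Nuclear hormone receptors had 20 higher and 21 lower of 133 (30.8% called, beside 39.6% of all transcripts). Neuropeptides and insulin-like peptides had 5 and 11 of 104 (15.4%), with 3 and 6 without damt-1 replicate 2 and 3 and 9 without wild type replicate 1. Chemoreceptors had 9 and 4 of 64 (20.3%). The receptor gene nhr-235 was at 1.59 and 2.62 CPM in wild type and 26 and 26.4 CPM in damt-1 (3.6 ± 0.31), and its neighbour in name nhr-234 was higher too (0.95 ± 0.08). The insulin-like gene ins-35 was higher (5.56 and 4.52 against 25.7 and 27.4 CPM, 2.4 ± 0.26), and the chemoreceptors srsx-18 (3.69 ± 0.53) and K01C8.1, now named srdh-1 (163 and 150.3 against 395 and 392 CPM, 1.33 ± 0.05), were higher. Transthyretin-like genes had 9 higher and 9 lower of 43 (41.9% called), with ttr-14 from 236 and 243 down to 36.4 and 38.7 CPM (-2.67 ± 0.07) and ttr-26 from 5.56 and 7.61 up to 45.2 and 48.5 CPM (2.81 ± 0.18). Of 11 basement membrane genes (27.3% called) the laminin lam-3 (14.8 and 15.9 against 61.9 and 66.4 CPM, 2.06 ± 0.18) and the peroxidasin pxn-2 (1.46 ± 0.12) were higher, and 1 transcript of the perlecan gene unc-52 was lower (-0.75 ± 0.16).

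The remaining large rises were mostly in genes with low wild type counts. For hsd-3, a hydroxysteroid dehydrogenase homologue, 92 counts stood against 2 in wild type, a ratio of 48.6 (95% counting interval 13.1 to 408). For a clone-named non-coding RNA the ratio was 36.3 (12.1 to 179) and for T12E12.6 26.8 (8.82 to 133). The clone-named genes K02H11.4 (current name gtnt-33, 1.85 and 1.19 against 30.4 and 38.5 CPM), F25D1.3 (1.59 and 1.43 against 34.2 and 30.3 CPM), F28G4.2 (1.85 and 2.14 against 35.3 and 33.8 CPM) and F31B9.4 (2.65 and 1.43 against 37.8 and 31 CPM) completed the 12 largest rises. Groups without overlap were a condition for the choice of these 12 as well.

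The genotype difference of the untreated worms was then set beside that of the treated worms, whose libraries are separate from the untreated ones. In P0, 4419 transcripts were called between the genotypes (36.6%). Of the 4783 untreated calls, 2432 were also called in the same direction in P0, 1073 higher and 1359 lower, which is 50.8% of the untreated calls and 55.0% of the P0 calls. A further 286 were called in the opposite direction, 143 of them higher in the untreated worms and 143 lower. The genotype by treatment interaction, which tests whether the untreated difference and the P0 difference are equal, was called for 2743 transcripts (22.7%). It was called for 2009 of the untreated calls. In 1852 of these the untreated difference lay further in the direction of its call than the P0 difference. That count includes P0 differences of the opposite sign, whatever their size. The untreated calls were selected on the untreated difference, which favours that side. Over all 2743, 1767 had the larger absolute difference in the untreated worms, and of the 1761 with a P0 call 817 did.

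Many cuticle genes had a difference that was large in untreated worms and small in treated ones. Of the 74 collagens lower in untreated damt-1, 41 were also lower in P0, 4 were higher and 29 were not called, and their median moved from -1.99 to -0.21. Over all transcripts, 1359 of the 2505 lower calls were also lower in P0 and 143 were called higher. The count of 41 is thus near the share of all lower calls. In P0 worms col-19 stood at 171 and 163 CPM in wild type and 129 and 130.0 CPM in damt-1 (log2 difference -0.37 ± 0.06), col-88 at 342 and 322 and 266 and 281 CPM (-0.28 ± 0.05), and col-81 at 199.7 and 203 and 201 and 202 CPM (0.00 ± 0.05). These collagens were near wild type levels in treated damt-1 worms and nearly missing from untreated ones. For col-137 the P0 values were 37.8 and 41.1 CPM in wild type and 60.4 and 53.9 CPM in damt-1, higher in damt-1 (0.54 ± 0.11). Of the 23 abu and pqn genes lower in untreated damt-1, 5 were also lower in P0 and 9 were higher. The 27 lower hedgehog-related and patched-related genes had 18 also lower and 3 higher in P0. The furrow collagens were higher in damt-1 in P0 as well, by a median of 1.23, beside 2.19 in the untreated worms.

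Most yolk, oocyte and sperm genes were called alike in both conditions. All 17 oocyte genes lower in untreated damt-1 were also lower in P0, and 50 of the 56 sperm genes were, beside 1359 of the 2505 lower calls over all transcripts. The P0 medians of these lists were -1.17 and -0.65. For vit-5 the P0 levels were 609 and 598 CPM in wild type and 58.4 and 54.4 CPM in damt-1 (-3.42 ± 0.06), and for vit-4 236 and 229 and 35.3 and 26.8 CPM (-2.89 ± 0.08). The germ line lists whose medians were near 0 in untreated worms had lower medians in P0. There 15 of 20 germ line and P granule transcripts (median -0.94), 17 of 19 meiotic genes (median -1.02) and 14 of 26 Argonautes (median -0.31) were lower. Over all transcripts, 2547 of 12071 were lower in P0. For the mitochondrial chaperones the P0 comparison had 0 higher and 1 lower member, beside 10 higher in the untreated worms. The interaction was called for 6 of those 10, beside 2009 of all 4783 untreated calls. Of these 6, the histone methyltransferase met-2 had the largest interaction, with a P0 difference of -0.47. The P0 differences of spg-7, lonp-1, ymel-1, timm-23 and timm-17B.1 lay between -0.13 and -0.03.

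Among the 286 transcripts called in opposite directions in the untreated and the P0 worms were genes of lipid, heme and defence families. The acyl-CoA synthetase acs-2 was higher in untreated damt-1 as given above, but in P0 it stood at 547 and 529 CPM in wild type and 73.1 and 66.6 CPM in damt-1 (-2.94 ± 0.05, adjusted p = 6.5e-21). The lectin clec-17 was at 1.59 and 1.19 CPM in untreated wild type and 6.85 and 10.3 CPM in untreated damt-1 (2.61 ± 0.37), and at 136 and 141 and 25.4 and 24.9 CPM in P0 (-2.46 ± 0.11). The heme-related gene hrg-2 (2.56 ± 0.58 untreated and -2.65 ± 0.3 in P0), K03D3.2 (2.63 ± 0.43 and -1.85 ± 0.27), oac-7 (1.5 ± 0.38 and -2.12 ± 0.32), F33H12.7 (1.57 ± 0.48 and -1.77 ± 0.28) and sod-3 (0.99 ± 0.26 and -0.93 ± 0.21) did the same. In the reverse order, abu-7, abu-15, col-62, abu-6, C54D2.1 and H37A05.2 were lower in untreated damt-1 and higher in P0, the last by -2.39 ± 0.55 and 2.4 ± 0.47. For vit-1 the untreated rise of 0.62 stood beside -0.82 ± 0.04 in P0. The call of F33H12.7 was lost without damt-1 replicate 2 or wild type replicate 2 (adjusted p up to 0.21). The call of oac-7 was lost without wild type replicate 1 (adjusted p up to 0.057). The call of abu-6 was lost without damt-1 replicate 1 or wild type replicate 1 (adjusted p up to 0.45).

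**Figure D5:**
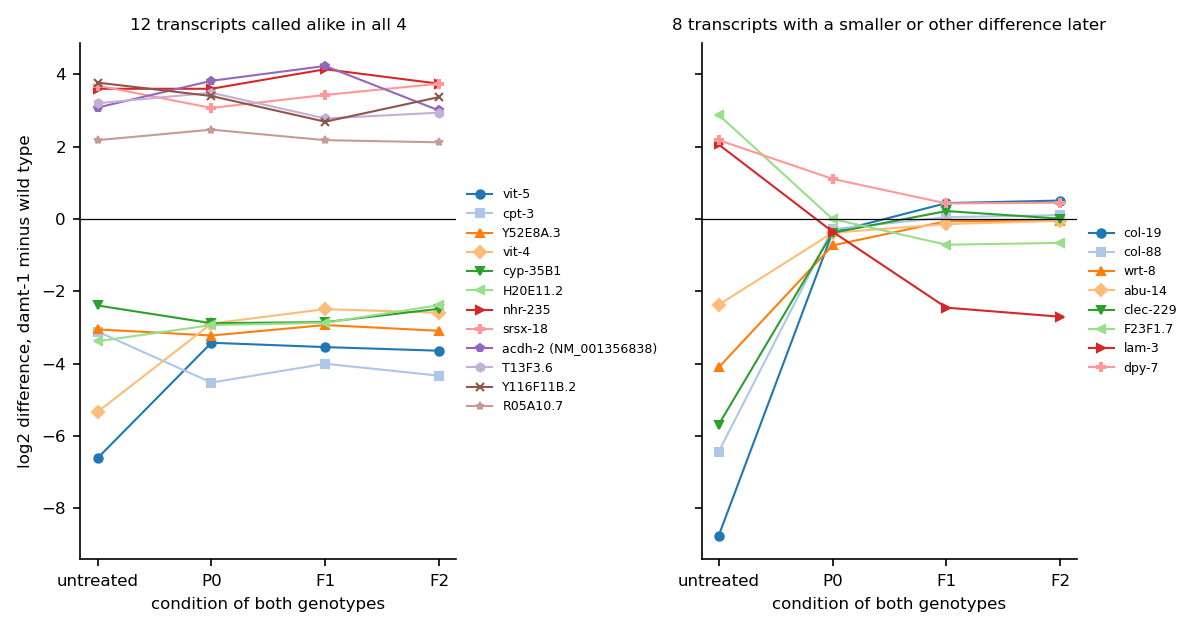
Log2 difference between damt-1 and wild type in untreated, P0, F1 and F2 worms for 12 transcripts called in the same direction in all 4 conditions (left) and for 8 transcripts with a smaller or other difference later (right); each point is 1 comparison of 2 libraries with 2. The 12 on the left were picked for the largest difference kept in all 4 conditions, the smallest being 2.12 in size. The 8 on the right were picked for a smaller or other difference later, so the contrast between the panels follows from the choice. On the right, col-19, col-88 and wrt-8 lie between -0.73 and 0.51 from P0 on and lam-3 changes sign.

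In F1 and F2 worms 6352 (51.7%) and 6038 (49.1%) of 12298 transcripts were called between the genotypes, in a fit of all 16 libraries. Of 4751 untreated calls tested there, 1641 (34.5%) had the same call in P0, F1 and F2, 709 higher and 932 lower. A further 966 higher and 993 lower calls were called in the same direction in none of the 3 treated conditions, which does not mean that their differences had the other sign. The yolk gene vit-5 was lower throughout, by -3.54 in F1 and -3.64 in F2. With it went Y52E8A.3, now named nxnr-1 (76.2 and 71.6 against 10.1 and 7.69 CPM untreated, and log2 differences of -3.05, -3.22, -2.93 and -3.09 in the 4 conditions), and H20E11.2 (-3.38, -2.93, -2.87 and -2.38). The carnitine palmitoyltransferase cpt-3 was at -3.11, -4.52, -4.0 and -4.33, and cyp-35B1 at -2.39, -2.88, -2.85 and -2.48. Higher throughout were nhr-235 (3.6, 3.6, 4.14 and 3.74), 1 transcript of the acyl-CoA dehydrogenase gene acdh-2 (3.08, 3.82, 4.23 and 3.0) and srsx-18. The clone-named T13F3.6 (9.53 and 8.8 against 88.5 and 80.3 CPM untreated), Y116F11B.2 (2.65 and 4.99 against 56.7 and 50.3 CPM) and R05A10.7 (23 and 14.3 against 88.2 and 79 CPM) were higher in all 4 conditions as well. In contrast 30 of the 74 lower collagens were called higher in damt-1 in F1, with 10 still lower and 34 not called. In F2 these numbers were 20, 6 and 48. Over all 2474 lower calls tested there, 591 had the opposite call in at least 1 treated condition. The collagen col-19 stood at 0.44 in F1 and 0.51 in F2. The sperm and oocyte genes stayed lower: 53 of 56 sperm genes and all 17 oocyte genes had the same call in F1 and also in F2. The same held for 17 of 17 histone genes in F1 and 15 in F2 on the higher side. Over all 4751 untreated calls tested there, 2061 had the same call in F1 and 1992 in F2.

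Transcripts listed for 1 genotype alone were not tested, since a table omits a transcript whose counts sum to 10 or fewer over its 4 libraries. Of the 631 listed for wild type alone 52 had at least 20 untreated counts, and of the 363 listed for damt-1 alone 30 did. The highest in wild type was the astacin protease gene nas-22, with 63 and 62 counts, against 2 and 0 in the damt-1 untreated libraries as a later damt-1 table lists them. It was followed by D1086.7 with 45 and 52 counts, F31D5.1 with 34 and 46, F45B8.3 with 24 and 47, F22B5.6 with 31 and 35 and B0391.14 with 20 and 24. In damt-1 the highest was Y38H6C.23, with 81 and 59 counts, which no wild type table lists. The others were pqn-60 with 44 and 39 counts, the transthyretin-like gene ttr-28 with 36 and 32, cky-1 with 24 and 38, the cuticlin-like cutl-25 with 14 and 48 and scl-10 with 17 and 25. For these 5 genes the wild type untreated libraries held between 0 and 3 counts each.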

How the data were processed

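Whole-worm RNA was counted per RefSeq transcript. The deposited count values are raw whole numbers, in 1 table per treated group that also holds the untreated libraries of that genotype. Tools named in the submitters' processing notes, which give no role or order, were HTSeq (version 0.9.1), HISAT2 (2.0.5), Trimmomatic (0.35), DESeq2 (1.20.0), SAMtools (1.3.1) and R (3.5.0), and the build was ce10. The deposited tables hold no transcript with 10 counts or fewer over their 4 libraries. Another 24 per-sample columns, in the authors' comparison tables, were not used. Each genotype's untreated counts matched across its 3 tables. Columns carry letter codes that the labels do not spell out: the pair that recurs in all tables of a genotype was read as untreated and the other pair as the treated group, with the last digit as the replicate. Symbols and lengths came from RefSeq tables of another build (matched for 11355 and 12694 of the 12925 shared transcripts), so coordinates are not given. No sequence is printed.

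The 8 untreated and P0 libraries were fitted together with edgeR 4.0.16 in R 4.3.3, with a mean for each of the 4 groups. Low counts were removed by filterByExpr (minimum count 10), scaling was by TMM, and the quasi-likelihood fit was robust. p-values were adjusted by Benjamini-Hochberg within each comparison, with a threshold of 0.05. Untreated library totals ran from 3694275 to 4145620. The biological coefficient of variation was 2.12%, with 4 residual degrees of freedom and a median prior of 17.3. F1 and F2 values come from a 16-library fit of 12298 transcripts. Where a group had 0 counts, the fold is a bound against 3 counts over its 2 libraries. With 1 to 3 counts it is a ratio with an exact 95% counting interval. Figures were drawn with matplotlib 3.10.9.

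The comparison, gene lists and alternatives were chosen with earlier results of these data known. Genes named by rule were damt-1, the 12 largest rises and falls without overlap and with 10 CPM or more in the higher group, up to 4 called members per list by adjusted p, lists of up to 6 in full, and 6 transcripts per direction listed for 1 genotype. Chosen after values were seen were the transcripts with no counts in damt-1, those called in opposite directions, those called alike in all conditions, and further single list members. Replicate numbers did not pair the libraries: deviations from the group means correlated between -0.0386 and 0.0376 over 6 pairs of groups. The fits were tested on simulated data, with changes in 65 to 67 transcripts per size. Log2 changes of 0.5, 1 and 3 were recovered in 36.9%, 67.2% and 97%, with 11 false calls among 11876 tested. A transcript that was not called may therefore still differ. Far fewer transcripts were changed there than the 4783 called in the data, so these shares need not carry over. Alternatives were DESeq2 1.42.0, other scalings, filters and sets of libraries, a fold limit, each untreated library left out, and a replicate block.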

Additional observations from a re-analysis of the deposited data

Results flagged for a closer look

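The difference between genotypes was itself different in untreated and in treated P0 worms for 2009 of the transcripts called in the untreated worms, by the edgeR interaction test. The report names 248 transcripts, and 147 of them passed that test, beside 2743 of all 12071 tested (22.7%) and 2009 of the 4783 untreated calls. Some of the 248 were chosen for a large untreated difference or for opposite calls in untreated and P0 worms, which favours passing it. The values below are the untreated log2 difference minus the P0 log2 difference, so that a negative value means a lower damt-1 level, relative to wild type, without antimycin than with it. Where a group had 0 counts, the value depends on the prior count of the fit and is no bound.

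Among col family collagens it was col-19 -8.39, col-137 -11.89, col-119 -8.13, col-152 -6.35, col-62 -9.71, col-81 -5.98, col-139 -6.0, col-88 -6.15 and col-140 -6.11. Among further col family collagens it was col-149 0.72, col-128 2.15, col-46 1.01, col-176 2.57, col-142 1.94 and col-7 -5.14. Among abu and pqn proteins it was pqn-29 -5.67, abu-1 -11.07, abu-7 -11.21, abu-15 -10.81, abu-14 -1.98, pqn-63 -4.96, abu-11 -6.45, pqn-37 -2.06 and abu-6 -6.49. Among cuticlins and zona pellucida proteins it was cutl-12 -7.23, noah-2 0.74, cutl-28 0.63, cut-4 -1.96 and cutl-15 -1.07. Among furrow collagens it was dpy-7 1.06, dpy-2 0.88, dpy-8 1.12, dpy-3 0.8 and dpy-9 1.11. Among hedgehog-related and patched-related it was wrt-8 -3.37, grd-6 -3.8, ptr-23 -1.7, wrt-2 0.83 and qua-1 0.39. Among moulting regulators and proteases it was myrf-1 0.29, nas-37 1.48, mlt-4 0.8, nas-36 -1.18 and mlt-7 -1.26. Among vitellogenins it was vit-5 -3.19, vit-4 -2.43, vit-3 -1.23 and vit-1 1.44. Among oocyte and eggshell it was perm-4 -1.71, perm-2 -1.31 and cpg-1 -1.04. Among germ line and P granule it was gld-1 0.58, gld-2 (NM_059440) -1.17, glh-1 0.66, daz-1 0.94, glp-1 0.81, mes-4 0.95 and mes-6 0.64. Among S-adenosylmethionine and one-carbon metabolism it was metr-1 0.24, hphd-1 0.18 and cbs-2 1.09. Among mitochondrial chaperones and proteases it was spg-7 0.28, lonp-1 0.24, ymel-1 0.21, timm-23 0.36, timm-17B.1 0.33 and met-2 0.63. Among antioxidant enzymes it was msra-1 0.25, sod-3 1.92, trx-3 -1.54 and gpx-1 -0.48. Among fatty acid activation and oxidation it was acs-2 5.2, acs-3 1.06, hacd-1 1.35, acdh-6 -1.2 and cpt-4 -1.18. Among fatty acid synthesis, lipases and lipid binding it was fasn-1 0.4, lbp-8 2.5, lipl-6 0.69, lips-3 -1.81 and lips-6 -3.36. Among UDP-glucuronosyltransferases it was ugt-47 -0.18, ugt-6 -0.63 and ugt-25 -0.92. Among C-type lectins it was clec-47 3.64, clec-229 -5.29, clec-230 -2.53 and clec-17 5.08. F41E6.11 stood at -9.16, beside F54F7.3 -7.6, C27D9.2 -5.45, T06E4.14 -7.35, C35B1.4 -5.15, scvp-1 -8.09, M02G9.3 -6.23, M02G9.1 -5.7 and M01B2.8 -6.5. W03G11.2 stood at -5.74, beside hsd-3 4.01, the clone-named non-coding RNA 4.32, K02H11.4 3.16, F25D1.3 2.61, F28G4.2 1.44, F31B9.4 2.09, K03D3.2 4.49 and oac-7 3.61. F33H12.7 stood at 3.34, beside C54D2.1 -8.76, H37A05.2 -4.79, dpy-17 2.87, bli-1 0.31, F32A11.3 0.42, rad-54 0.77, wago-4 0.67 and wago-10 1.07. myo-2 stood at -1.13, beside myo-5 -1.43, ida-1 -0.32, inx-8 0.94, inx-9 1.56, hcf-1 0.32, mrpl-37 0.25, mrpl-22 0.29 and cox-15 0.4. cox-10 stood at 0.3, beside hsp-4 -0.23, nhr-57 0.76, nhr-234 -0.73, cysl-3 0.48, cysl-2 0.36, aco-1 0.16, nnt-1 -0.85 and cyp-37B1 -3.01. cyp-23A1 stood at 0.81, beside gst-35 -0.7, mrp-4 0.77, pgp-10 1.6, hrg-1 -0.67, hrg-2 5.21, F23F1.7 2.88, nlp-34 -1.67 and chil-22 2.14. K01C8.1 stood at 1.15, beside ttr-14 -1.17, ttr-26 2.55, lam-3 2.41 and unc-52 (NM_001350388) 0.82.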

How the results depend on the processing

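No transcript called in the main test was called in the opposite direction under the 15 alternatives run. DESeq2 gave 1362 higher and 1693 lower transcripts, 1471 called alike in P0 and 1078 with an interaction. With a log2 difference of at least 1 required, 625 were higher, 1012 lower, 652 called alike in P0 and 611 had an interaction, and F1 and F2 had 2193 and 2129 calls. Leaving out each untreated library in turn gave 1766 to 1909 higher, 2053 to 2204 lower, 2107 to 2201 called alike in P0, 1644 to 1731 with an interaction, 6338 to 6582 F1 calls and 6004 to 6362 F2 calls. With the replicate number as a block, there were 2256 higher, 2491 lower, 2411 called alike in P0, 2014 with an interaction, 6299 F1 calls and 5985 F2 calls. A fit of the 4 untreated libraries alone gave 2167 higher and 2506 lower, and can give no P0, interaction, F1 or F2 value. The cause of these shifts was not tested.

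Of 288 transcripts tabulated, 42 lost their call in at least 1 setting other than the fold limit, 32 of them under DESeq2 and 39 without a library, and 0 changed direction. Beside the fold limit, DESeq2 alone ended the calls of hsp-60, timm-23 and gpx-1. Under DESeq2 the count of higher members fell from 29 to 6 for mitochondrial ribosomal proteins, from 10 to 2 for mitochondrial chaperones and proteases, from 6 to 2 for complexes I, II, IV and V, from 17 to 11 for histones, from 15 to 8 for fatty acid synthesis, from 9 to 5 for glycolysis and from 19 to 12 for the lysozyme list. The list medians of the col family (-1.05 to -0.70), furrow collagens (2.16 to 2.27) and vitellogenins (-4.74 to -4.0) kept their sign in these settings.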
